A study of Mus musculus with 11 samples.

Results

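The aminoacyl-tRNA synthetase genes are described here across LSKs, the Lin-Sca1+Kit+ bone marrow cells that hold hematopoietic stem cells and multipotent progenitors. Members were taken by name, 20 genes for cytosolic enzymes and 16 for mitochondrial enzymes whose symbols end in 2, and all 36 were among the 12647 genes of the count table. RNA-seq was done on LSKs of 3 genotypes with 3 libraries each, 9 in all. The p53+/+ mice carry the humanized p53 knock-in allele HUPKI, in which part of the mouse gene is replaced by human p53 sequence. The p53R248W/+ mice carry the R248W substitution in 1 such allele, expressed from the endogenous mouse promoter, beside 1 allele without it, and the p53-/- mice lack p53. All groups were young, tumor-free mice on a C57BL/6 background, and their sex and the number of mice behind each library are not given in the sources used here. P-values therefore measure the spread between libraries, which may be partly technical. The comparisons ask whether synthetase transcripts differ in LSKs when p53 is lost or when 1 copy carries R248W. The paper does not state whether the p53-/- mice come from the HUPKI line. In comparisons with p53-/-, loss of p53 and a difference between lines therefore cannot be told apart. The H3K27me3 ChIP-seq samples were not analysed here.

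Aminoacyl-tRNA synthetases join each amino acid to its tRNA and so set the supply of charged tRNA for translation. They form class I and class II by the fold of the catalytic domain, and in the cytosol several of them are held in the multisynthetase complex by the scaffold proteins Aimp1, Aimp2 and Eef1e1. Mitochondria use a separate set of nuclear-encoded enzymes, except that Kars and Gars, the lysyl- and glycyl-tRNA synthetases, serve both compartments, and that mitochondrial glutaminyl-tRNA is made by way of Ears2 and an amidotransferase. Eprs is a single protein that charges both glutamyl- and prolyl-tRNA. Many cytosolic synthetase genes are known targets of Atf4, the transcription factor of the amino acid response, while hematopoietic stem cells are known for a low rate of protein synthesis.

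Library totals ranged from 18021375 to 29750702 counts, so every synthetase gene passed the filter on low counts. All 10 LSK markers were detected, with a summed level from 3773 to 5239 CPM (counts scaled to a common library total, with TMM factors) over the 9 libraries. The libraries differed in the recovery of long against short genes, with an index (median log2 deviation of genes of at least 4342 bases minus that of genes of at most 1815 bases) of -0.66 in p53R248W/+ replicate 1 and 0.49 in p53+/+ replicate 2 as extremes. Among markers of other cells, 8 of 9 granulocyte and monocyte genes were in the table, and their sum was 4001 CPM in p53+/+ replicate 2 and 3089 CPM in p53R248W/+ replicate 2 against 804 to 1490 CPM in the other 7 libraries. The sums of the 5 B lymphoid, 4 T and NK and 4 erythroid markers in the table (of 6, 6 and 8 listed, with Pax5, Cd3e, Cd3g and 4 globin genes not analysed here) lay at 74.6 to 128, 206 to 415 and 15.5 to 81.1 CPM, and no listed marker in the table was at 0 in all libraries of a genotype. The deleted gene Trp53 was at 125, 207 and 376 CPM in p53+/+, 219, 240.5 and 235 CPM in p53R248W/+ and 129, 127 and 112 CPM in p53-/- libraries, so p53+/+ replicate 1 lay within the range of the p53-/- libraries. Which exons the p53-/- allele lacks is not given in the sources used here, and reads outside them do not check the genotype. In bulk LSKs, fewer cells of a type and less RNA per cell cannot be told apart.

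Sequences are shown for the genes whose promoter window holds the letters TGATGNAA, the core of the element bound by Atf4 with a C/EBP partner. Only letters were matched, and binding of Atf4 to these genes was not measured. In RefSeq promoter windows (GRCm38.p6, 250 bases before to 50 bases after an annotated start), which cover 27 of the 36 genes, the letters TGATGNAA were searched on both strands. They occurred in the windows of Aars, Gars, Iars, Tars and Yars, 5 of the 13 cytosolic genes with a window, and in 0 of the 14 mitochondrial genes with a window. Of all 27025 genes with windows, 4.51% held the letters, and of all 32851 windows 3.97%. The stretches below are written along the gene, with the element in capitals, which read TTNCATCA where it lies on the opposite strand.
Aars, chr8:111033840-111033869, plus strand: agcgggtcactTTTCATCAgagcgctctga
Gars, chr6:55037960-55037989, plus strand: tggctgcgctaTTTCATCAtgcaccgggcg
Iars, chr13:49682126-49682155, plus strand: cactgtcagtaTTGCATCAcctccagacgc
Tars, chr15:11399655-11399684, minus strand: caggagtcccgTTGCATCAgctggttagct
Yars, chr4:129189895-129189924, plus strand: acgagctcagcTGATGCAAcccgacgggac

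The 5 elements shown lay between 30 bases before and 10 bases after the annotated start of their window. The 5 genes belong to a group of 12 synthetases listed by hand as induced in the amino acid response, of which 8 had a window. The other members of that group with a window, Eprs, Mars and Sars, held no match, which says only that these letters are not in these windows. The E-box CACGTG, which reads the same on both strands and is bound by Myc, was also searched. It was found for 4 of the 13 cytosolic genes with a window (Aars, Farsb, Iars and Tars) and 1 of the 14 mitochondrial genes (Ears2). Of all genes with windows, 8.09% held it. No window was found for Cars, Hars, Lars, Nars, Rars, Vars, Wars, Hars2 and Pars2.

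In p53+/+ LSKs the cytosolic synthetase transcripts mostly lay above the mitochondrial ones, with Lars2 as a large exception. Per length, as CPM divided by the gene length in kilobases (RPKM), the 20 cytosolic genes had a median of 57.9 and ranged from 16.9 for Cars to 160 for Vars. The 15 mitochondrial genes other than Lars2 had a median of 21.2 RPKM and ranged from 3.41 for Wars2 to 36.8 for Rars2. Lars2, the mitochondrial leucyl-tRNA synthetase, stood at 903 ± 252 RPKM (SD, n = 3). The order from gene to gene was fine-grained, and in 32 of 35 neighbouring pairs the ranges of the p53+/+ libraries overlapped, the exceptions being Lars2 above Vars, Mars2 above Ears2 and Ears2 above Wars2. Without the length correction, 4 of the 5 highest genes stayed among the 5 highest.

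**Figure D1:**
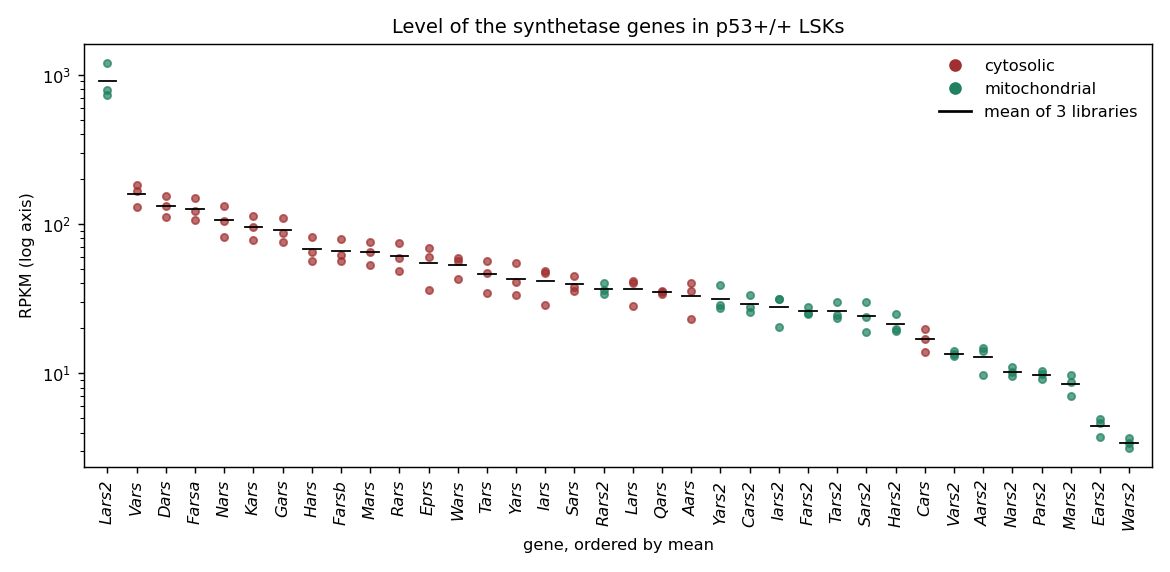
RPKM on a log axis of the 36 synthetase genes in the 3 p53+/+ libraries (points) with their mean (line), cytosolic in red and mitochondrial in green. Lars2 lies far above all others, and the mitochondrial genes fill the low end down to Wars2 at 3.41 RPKM.

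The highest cytosolic transcripts were those of Vars, Dars and Farsa, the valyl- and aspartyl-tRNA synthetases and the catalytic subunit of the phenylalanyl enzyme. Vars measured 544, 774 and 706 CPM in p53+/+, 421, 649.6 and 619 CPM in p53R248W/+ and 593, 432 and 646 CPM in p53-/- LSKs. Levels of Dars were 383, 280.1 and 329.6 CPM with p53+/+, 498, 289.7 and 268 CPM with p53R248W/+ and 423, 349.5 and 387 CPM with p53-/-. For Farsa the values were 194, 223 and 272 CPM in p53+/+, 208, 221 and 205 CPM in p53R248W/+ and 166, 164 and 207 CPM in p53-/- libraries. The 3 genotypes overlapped for each of these genes. The lowest cytosolic genes per length were Cars, Aars and Qars, which charge cysteinyl-, alanyl- and glutaminyl-tRNA. Qars was at 97.0, 92.4 and 95.3 CPM in p53+/+, 96.2, 91.9 and 102 CPM in p53R248W/+ and 121, 109.9 and 101 CPM in p53-/- libraries. Qars was nearly level in p53+/+ and its p53-/- libraries all lay above them, while Cars and Aars are given with the knockout comparison.

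Next to Lars2 the highest mitochondrial genes per length were Rars2 and Yars2, for arginyl- and tyrosyl-tRNA, at 36.8 and 31.6 RPKM. Rars2 measured 67.4, 63.5 and 75.5 CPM in p53+/+, 85.5, 68.7 and 61.8 CPM in p53R248W/+ and 75.1, 64.5 and 76.5 CPM in p53-/- LSKs. Levels of Yars2 were 43.5, 45.5 and 61.4 CPM with p53+/+, 59.4, 55.9 and 43.8 CPM with p53R248W/+ and 54.7, 54.3 and 51.8 CPM with p53-/-. Neither separated the genotypes. The lowest were Wars2, Ears2 and Mars2, for tryptophanyl-, glutamyl- and methionyl-tRNA. For Wars2 the values were 16.1, 13.9 and 14.9 CPM in p53+/+, 17.9, 14.5 and 15.3 CPM in p53R248W/+ and 23.1, 13.9 and 15.7 CPM in p53-/- libraries. Ears2 was at 24.3, 32.3 and 30.2 CPM in p53+/+, 21.0, 27.9 and 33.1 CPM in p53R248W/+ and 23.7, 26.7 and 30.5 CPM in p53-/- libraries. Mars2 measured 20.2, 25.1 and 28.2 CPM in p53+/+, 24.3, 21.6 and 25.3 CPM in p53R248W/+ and 34.5, 30.3 and 32.8 CPM in p53-/- LSKs. The genotypes overlapped for Wars2 and Ears2, whereas the 3 p53-/- values of Mars2 lay above all other libraries. When the enzymes for the same amino acid were paired, taking Eprs for Ears2 and Pars2 and Farsa for Fars2, the cytosolic gene had the higher RPKM in 14 of 15 pairs without Lars2, with a median ratio of 3.19 and a range from 0.582 for Cars over Cars2 to 15.5 for Wars over Wars2.

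In p53-/- against p53+/+ LSKs, Eprs fell, and most of the other cytosolic synthetase genes had a log2 fold change below 0 without passing the test. Of the 20 cytosolic genes, 16 had a log2 fold change below 0, with a median of -0.30, where 6321 of all 12625 genes tested were below 0 and the median over all genes was -0.0012. In edgeR's quasi-likelihood test with Benjamini-Hochberg adjustment, 1 of 20 was lower and 0 were higher at an adjusted p below 0.05, while 2.25% of all genes were lower and 1.25% higher. At an unadjusted p below 0.05, 6 of 20 were lower (Eprs, Kars, Hars, Aars, Cars and Lars) and 0 higher, against 12.5% and 10.9% of all genes. The groups did not overlap for 3 lower genes (Eprs, Hars and Kars) and 1 higher gene (Qars), where 16% of all genes were separate and lower and 15.4% separate and higher. Members were taken by name, though with earlier results of these data known. Several cytosolic genes had low values in the same library, so they do not count as independent.

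Eprs (chr1:185361417-185428360, GRCm38.p6, plus strand) had the largest difference of any synthetase. Levels of Eprs were 176, 290.0 and 334 CPM with p53+/+, 139, 309 and 245 CPM with p53R248W/+ and 88.0, 93.8 and 112 CPM with p53-/-. All p53-/- values lay below every other library, and in both other genotypes replicate 1 was the lowest. The mean was 97.9 ± 12.4 CPM in p53-/- and 267 ± 81.7 CPM in p53+/+ LSKs (SD, n = 3 each), a 2.73-fold lower level in the fit (log2 fold change -1.45, SE 0.30, adjusted p = 0.0293). The sign held when any library was left out, with log2 fold changes from -1.67 to -1.25. The call was lost without p53+/+ replicate 2 (adjusted p = 0.0845), p53+/+ replicate 3 (0.140), p53-/- replicate 1 (0.101), p53-/- replicate 2 (0.0879) or p53-/- replicate 3 (0.0664), each of which leaves that genotype with 2 libraries. Among the 8 enzymes of the multisynthetase complex (Dars, Eprs, Iars, Kars, Lars, Mars, Qars and Rars), 6 had a log2 fold change below 0 and only Eprs passed the test.

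Kars and Gars, whose products work in both compartments, did not pass the test. For Kars the values were 178, 216 and 258 CPM in p53+/+, 204, 211 and 198 CPM in p53R248W/+ and 166, 145 and 173 CPM in p53-/- libraries. The p53-/- libraries of Kars were the 3 lowest of the 9 (log2 fold change -0.43, SE 0.17, adjusted p = 0.158). Gars was at 182, 207 and 261 CPM in p53+/+, 208, 216 and 168 CPM in p53R248W/+ and 191, 155 and 178 CPM in p53-/- libraries. For Gars the p53-/- and p53+/+ ranges overlapped (log2 fold change -0.31, SE 0.18, adjusted p = 0.326).

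**Figure D2:**
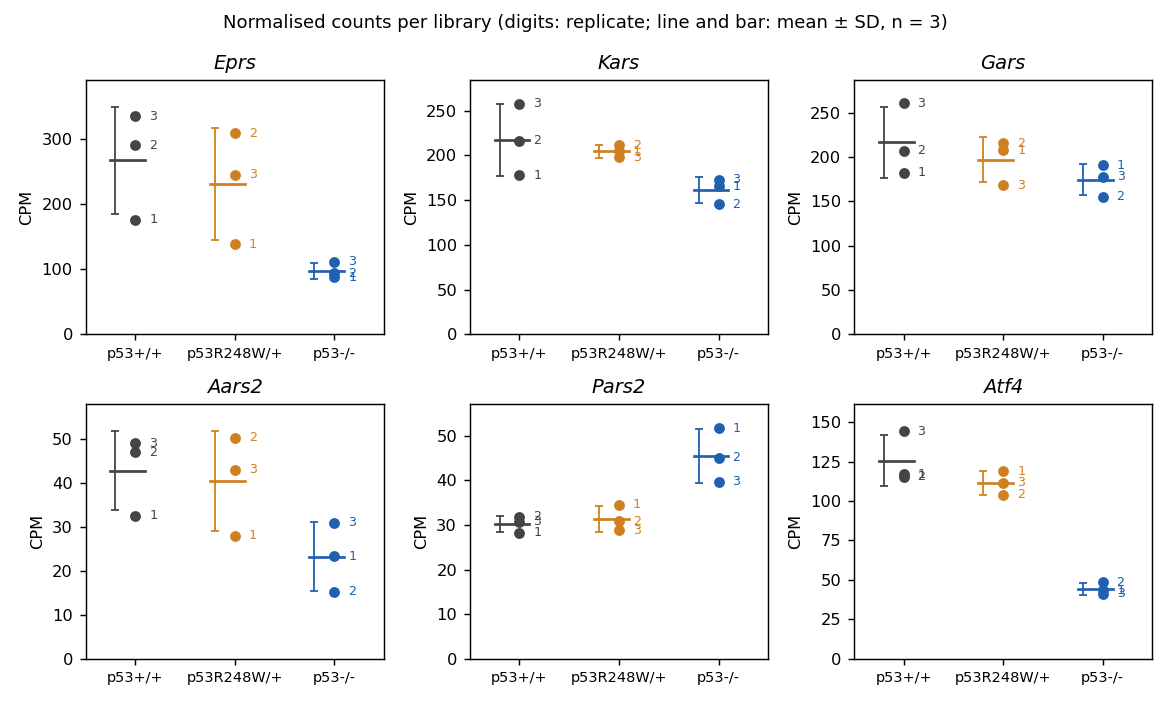
CPM per library of Eprs, Kars, Gars, Aars2, Pars2 and Atf4 by genotype, with replicate numbers beside the points and mean ± SD (n = 3) as line and bar. Eprs, Kars, Aars2 and Atf4 have their p53-/- libraries below all p53+/+ libraries, and Pars2 has them above.

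Lars and Aars, for leucyl- and alanyl-tRNA, had the next largest log2 fold changes of the cytosolic set. Lars measured 107, 152 and 157 CPM in p53+/+, 105, 135 and 121 CPM in p53R248W/+ and 106, 52.3 and 110.3 CPM in p53-/- LSKs. Levels of Aars were 85.8, 132 and 149 CPM with p53+/+, 85.4, 119 and 102 CPM with p53R248W/+ and 89.9, 57.2 and 93.1 CPM with p53-/-. For both genes p53-/- replicate 2 was the lowest of the 9 libraries, and the other 2 p53-/- libraries lay within or at the edge of the p53+/+ range (log2 fold change -0.63, SE 0.27, adjusted p = 0.183 for Lars; log2 fold change -0.61, SE 0.24, adjusted p = 0.163 for Aars). For Hars the values were 113, 129 and 163 CPM in p53+/+, 112, 129 and 116 CPM in p53R248W/+ and 107, 96.3 and 96.7 CPM in p53-/- libraries. The p53-/- values of Hars, the histidyl-tRNA synthetase, all lay below the other 6 (log2 fold change -0.43, SE 0.17, adjusted p = 0.159). Cars was at 44.5, 54.8 and 63.7 CPM in p53+/+, 42.0, 49.6 and 45.8 CPM in p53R248W/+ and 47.4, 36.6 and 33.8 CPM in p53-/- libraries. For Cars the groups overlapped (log2 fold change -0.47, SE 0.20, adjusted p = 0.180). The other 13 cytosolic genes ranged from a log2 fold change of -0.37 for Iars to 0.22 for Dars and Qars.

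The cytosolic genes varied together between libraries of 1 genotype. In p53+/+, replicate 3 was the highest library for 17 of 20 genes and replicate 1 the lowest for 17 of 20, whereas over all genes tested these shares were 30.8% and 35.5%. In p53-/-, replicate 2 was the lowest for 16 of 20, against 37.4% of all genes. Summed over the 20 genes, the level was 3297, 4045 and 4584 CPM in p53+/+, 3489, 3904 and 3430 CPM in p53R248W/+ and 3525, 2815 and 3552 CPM in p53-/- libraries. These sums overlap between the genotypes. The index of long against short genes was -0.084, 0.49 and -0.0021 in p53+/+ and -0.0098, -0.42 and 0.17 in p53-/- replicates 1 to 3, so p53-/- replicate 2 had the lowest index of these 6 libraries, and its part in the result was not tested further than by an offset. With the trend on gene length removed by that offset, chosen after seeing the data, 17 of 20 cytosolic genes had a log2 fold change below 0, with a median of -0.32. Leaving out p53+/+ replicate 1 and p53R248W/+ replicate 1 together, also chosen after seeing the data, gave 8 synthetase calls in place of 1 (Aars, Eprs, Hars and Kars lower among the cytosolic genes, and Aars2, Iars2 and Sars2 lower and Lars2 higher among the mitochondrial genes). Over all genes that fit called 1879 in place of 442, so the rise in calls was not limited to the synthetases.

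**Figure D3:**
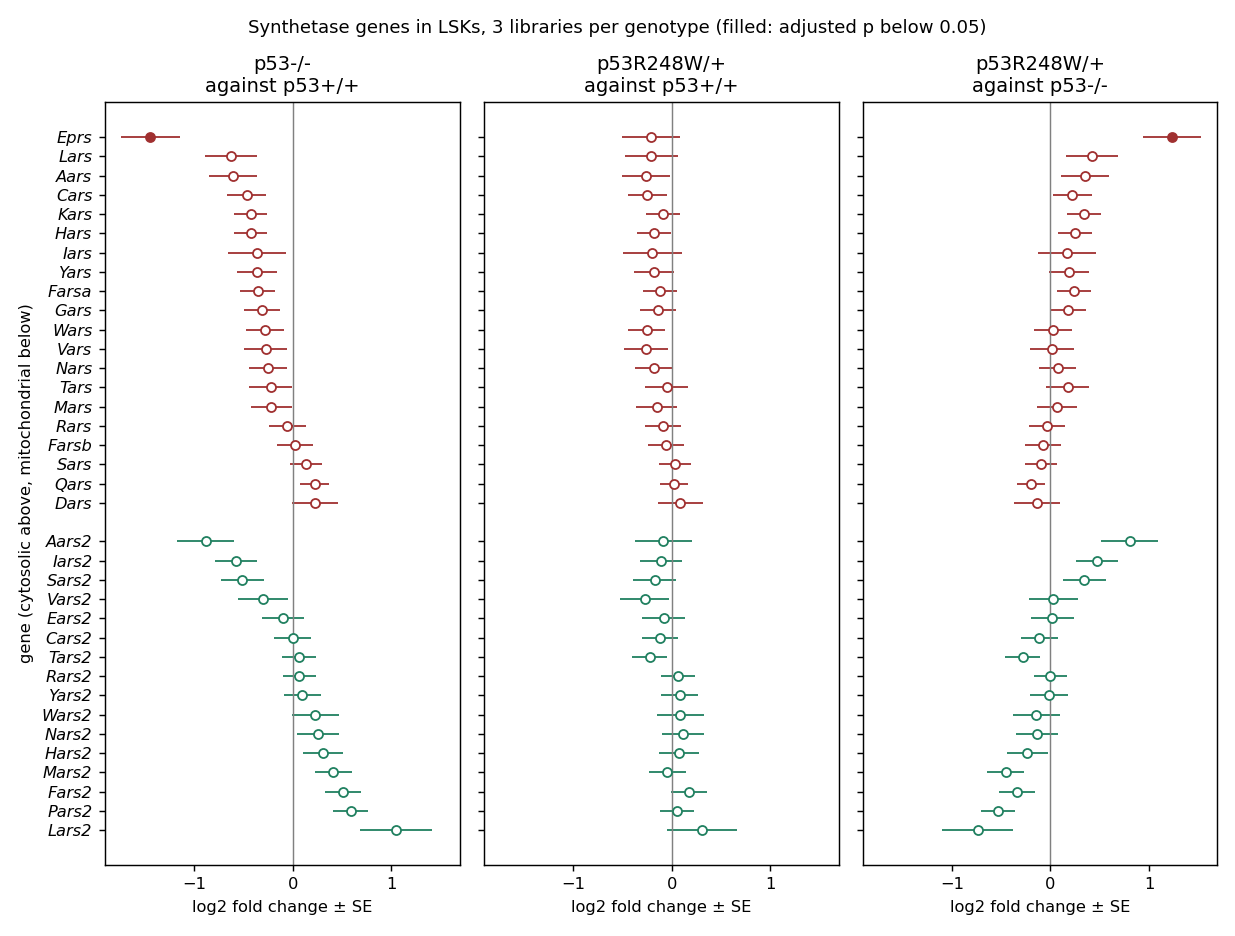
Log2 fold changes with their SE of the 36 genes in the 3 comparisons, cytosolic above and mitochondrial below, each ordered by p53-/- against p53+/+, with filled points at an adjusted p below 0.05. Eprs is the only filled point, in the 2 comparisons with p53-/-, and the p53R248W/+ against p53+/+ values lie close to 0.

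The 12 synthetases of the amino acid response group (Aars, Cars, Eprs, Gars, Iars, Lars, Mars, Nars, Sars, Tars, Wars and Yars) were listed by hand with earlier results of these data known. Of these, 11 had a log2 fold change below 0, with a median of -0.34, and among the 8 other cytosolic genes 5 did, with a median of -0.17. The 5 genes with the Atf4-type element printed above had log2 fold changes of -0.61 for Aars, -0.37 for Iars, -0.37 for Yars, -0.31 for Gars and -0.23 for Tars, and none passed the test. Atf4 itself fell in p53-/- LSKs. Atf4 measured 117, 115 and 144 CPM in p53+/+, 119, 104 and 112 CPM in p53R248W/+ and 43.4, 48.4 and 41.2 CPM in p53-/- LSKs. The p53-/- values were all less than the lowest of the other 6 (log2 fold change -1.50, SE 0.16, adjusted p = 0.00203), and this call held under all 18 alternatives, with adjusted p-values up to 0.0194. Mthfd2, a mitochondrial folate enzyme induced by Atf4, also fell. Levels of Mthfd2 were 21.0, 25.1 and 46.1 CPM with p53+/+, 25.6, 30.3 and 20.9 CPM with p53R248W/+ and 14.8, 13.0 and 13.5 CPM with p53-/-. Its groups did not overlap (log2 fold change -1.16, SE 0.29, adjusted p = 0.0497), and the call was lost with DESeq2 size factors (adjusted p = 0.0510) and when any 1 library except p53+/+ replicate 1 or p53R248W/+ replicate 1 was left out (0.0591 to 0.198). Trib3, which is induced by Atf4 and Ddit3, did not pass the test (log2 fold change 1.32, SE 0.36, adjusted p = 0.0619). For Trib3 the values were 13.8, 12.2 and 5.58 CPM in p53+/+, 13.9, 7.32 and 9.14 CPM in p53R248W/+ and 22.9, 34.6 and 21.2 CPM in p53-/- libraries. Of the 15 genes of Atf4 and the amino acid response, also listed with earlier results known, 2 were lower and 0 higher at an adjusted p below 0.05, against 2.25% and 1.25% of all genes. A log2 fold change below 0 was seen for 9 of the 15, against 6321 of 12625. Asns, the asparagine synthetase and a classic Atf4 target, overlapped between the genotypes (log2 fold change 0.18, SE 0.35, adjusted p = 0.787), with p53+/+ replicate 3 the highest of the 9 libraries.

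**Figure D4:**
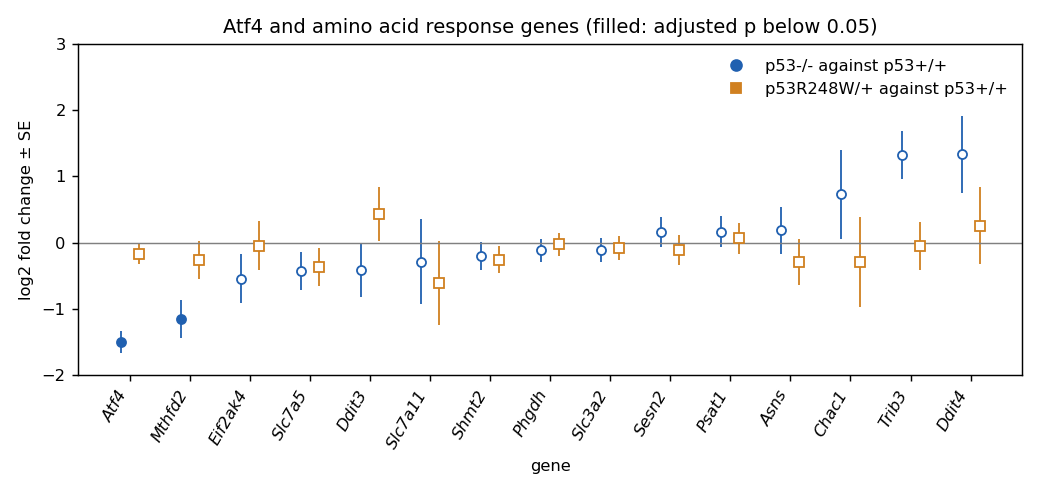
Log2 fold changes with SE of 15 genes of Atf4 and the amino acid response, for p53-/- (circles) and p53R248W/+ (squares) against the same p53+/+ libraries. Atf4 and Mthfd2 are filled in p53-/-, Trib3 and Ddit4 lie above 0 without passing the test, and no p53R248W/+ point is filled.

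The 3 scaffold genes of the multisynthetase complex were measured beside its enzymes. Aimp1 was at 55.4, 42.3 and 62.2 CPM in p53+/+, 67.3, 49.5 and 49.7 CPM in p53R248W/+ and 39.9, 50.7 and 41.5 CPM in p53-/- libraries. Aimp2 measured 99.0, 89.3 and 130.2 CPM in p53+/+, 138, 95.1 and 91.6 CPM in p53R248W/+ and 152, 173 and 131 CPM in p53-/- LSKs. Levels of Eef1e1 were 74.5, 53.05 and 83.9 CPM with p53+/+, 117, 65.9 and 59.7 CPM with p53R248W/+ and 82.9, 96.4 and 77.1 CPM with p53-/-. None passed the test in p53-/- against p53+/+ LSKs, with log2 fold changes of -0.27 for Aimp1, 0.52 for Aimp2 (adjusted p = 0.169) and 0.28 for Eef1e1. The Aimp2 values of p53-/- were all above those of p53+/+, but the lowest p53-/- library (131.1 CPM) and the highest p53+/+ library (130.2 CPM) were almost equal. By enzyme class, 12 of 18 class I genes and 9 of 17 class II genes had a log2 fold change below 0, with medians of -0.16 and -0.23, leaving out Eprs, which holds a domain of each class.

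The mitochondrial synthetase genes showed no common direction in p53-/- LSKs. Of the 15 without Lars2, 6 had a log2 fold change below 0 and 9 above, with a median of 0.066, and 0 of 16 passed the test in edgeR, while 3 were lower and 3 higher at an unadjusted p below 0.05, Lars2 included, against 12.5% and 10.9% of all genes. With DESeq2, Aars2 was called lower (adjusted p = 0.0341) and Pars2 and Lars2 higher (0.0172 and 0.0296). The groups did not overlap for 2 lower genes, Aars2 and Sars2, and 5 higher genes, Fars2, Hars2, Mars2, Nars2 and Pars2, which are shares of 16 to set beside the 16% and 15.4% of all genes given above.

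Pars2 and Aars2, for prolyl- and alanyl-tRNA, had the smallest p-values of the mitochondrial set. For Pars2 the values were 28.3, 31.8 and 30.8 CPM in p53+/+, 34.6, 30.8 and 28.9 CPM in p53R248W/+ and 51.7, 45.1 and 39.7 CPM in p53-/- libraries. The p53-/- libraries were the 3 highest (log2 fold change 0.59, SE 0.17, adjusted p = 0.0756). Aars2 was at 32.5, 47.0 and 49.0 CPM in p53+/+, 28.0, 50.4 and 43.0 CPM in p53R248W/+ and 23.4, 15.2 and 30.9 CPM in p53-/- libraries. For Aars2 the p53-/- libraries lay below all p53+/+ libraries, and p53-/- replicate 2 was the lowest (log2 fold change -0.89, SE 0.29, adjusted p = 0.100). Leaving out single libraries gave adjusted p-values from 0.0350 to 0.215 for Pars2 and from 0.0413 to 0.301 for Aars2, both falling below 0.05 without p53R248W/+ replicate 1, which had the widest deviation in the length index. With the trend on gene length removed, both passed the test (0.0461 and 0.0480).

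Iars2, Sars2 and Fars2 differed only at an unadjusted p. Iars2 measured 71.7, 111 and 110.4 CPM in p53+/+, 75.1, 96.6 and 100.3 CPM in p53R248W/+ and 74.3, 52.2 and 69.9 CPM in p53-/- LSKs. Levels of Sars2 were 36.0, 45.7 and 57.4 CPM with p53+/+, 31.7, 47.4 and 44.5 CPM with p53R248W/+ and 34.8, 29.7 and 32.8 CPM with p53-/-. For Fars2 the values were 52.8, 48.0 and 47.0 CPM in p53+/+, 63.8, 52.4 and 50.3 CPM in p53R248W/+ and 82.6, 56.7 and 71.1 CPM in p53-/- libraries. Iars2 and Sars2, for isoleucyl- and seryl-tRNA, had log2 fold changes of -0.58 and -0.52, and Fars2, for phenylalanyl-tRNA, of 0.51, with adjusted p-values of 0.135, 0.183 and 0.125. Cytosolic and mitochondrial enzymes for 1 amino acid often differed in sign. In 10 of 16 pairs the cytosolic log2 fold change was below 0 and the mitochondrial one above, and in 5 both were below, with Aars and Aars2 (-0.61 and -0.89), Iars and Iars2 (-0.37 and -0.58), and Vars and Vars2 (-0.28 and -0.30) among them. With 16 of 20 cytosolic genes below 0 and 10 of 16 mitochondrial genes above 0, such pairs are frequent without any relation within a pair. Lars with Lars2 is among the 10, and Eprs serves for both Ears2 and Pars2. For prolyl-tRNA, Eprs fell and Pars2 had a log2 fold change of 0.59. Of the 8 partners of mitochondrial tRNA charging and elongation, such as the amidotransferase subunits Gatb, Gatc and Qrsl1, 6 had a log2 fold change below 0, and the smallest adjusted p was that of the elongation factor Gfm1 (log2 fold change -0.61, adjusted p = 0.0914).

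Lars2 (chr9:123366927-123462675, GRCm38.p6, plus strand) was treated apart for its very large counts. Lars2 was at 4624, 2830.0 and 3055 CPM in p53+/+, 6021, 3371 and 3613 CPM in p53R248W/+ and 4597, 12062 and 5034 CPM in p53-/- libraries. It was the gene with the largest count in 5 of 9 libraries, all 3 p53-/- libraries among them, and held from 0.290% to 1.19% of a library. Lars2 exceeded the summed CPM of the other 15 mitochondrial synthetases by a factor from 3.57 in p53+/+ replicate 3 to 17.0 in p53-/- replicate 2, and took 36.0% to 77.4% of all synthetase counts. The Lars2 span overlaps that of Gm46137, and copies of its non-coding part elsewhere in the genome were not sought. How much of the Lars2 count comes from synthetase mRNA was therefore not tested. In p53-/- against p53+/+ LSKs its log2 fold change was 1.05 (SE 0.36, adjusted p = 0.114), the groups overlapping through p53+/+ replicate 1 and p53-/- replicate 1. Without p53-/- replicate 2, which alone stood at 12062 CPM, the log2 fold change was 0.46. Rn45s, the ribosomal RNA precursor, chosen after its values were seen, was also highest in that library. Rn45s measured 3213, 2269 and 2099 CPM in p53+/+, 4363, 3796 and 3344 CPM in p53R248W/+ and 2397, 6059 and 2194 CPM in p53-/- LSKs. The second highest library for both was p53R248W/+ replicate 1. Setting Lars2 aside from the library totals changed no synthetase call.

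The 5 genes whose log2 CPM followed Lars2 most closely over the 9 libraries were Creb3, Rabac1, Timm21, Klk8 and Blvrb, with Pearson r from 0.96 to 0.98, given as a description without a test. Without p53-/- replicate 2 the same r values ran from 0.90 to 0.96. All 5 were highest in p53-/- replicate 2 as well, with Creb3, a membrane-bound transcription factor, at 73.4 CPM there and 31.9 to 51.6 CPM in the other 8 libraries. Rn45s had an r of 0.73, or 0.39 without that library. The points share the length index, which was -0.42 in p53-/- replicate 2 and -0.66 in p53R248W/+ replicate 1. The part of library quality in the Lars2 values was not tested.

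**Figure D5:**
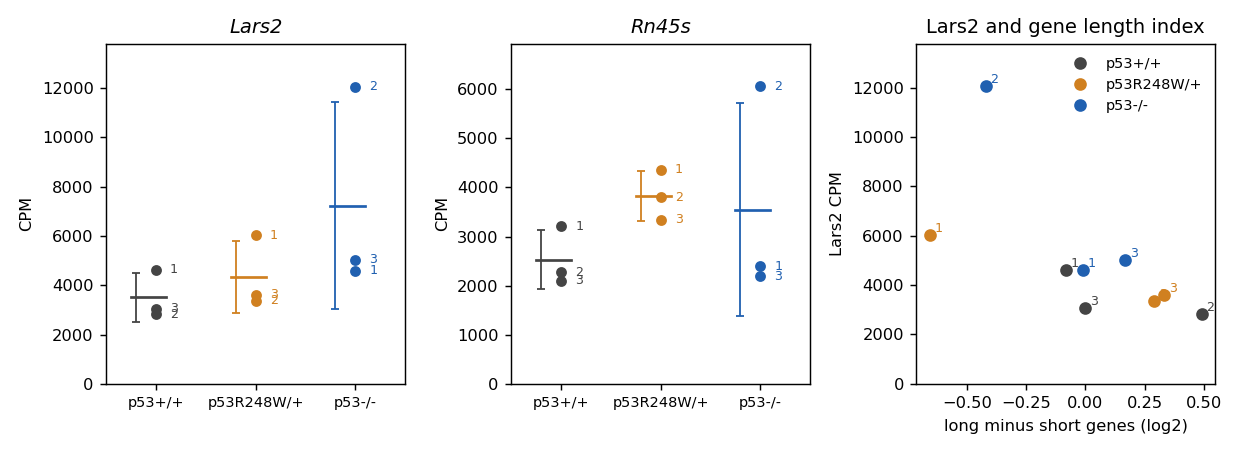
CPM per library of Lars2 and Rn45s by genotype with mean ± SD (n = 3), and Lars2 CPM against the index of long against short genes (log2) in the 9 libraries. The p53-/- replicate 2 library has 12062 CPM of Lars2 and 6059 CPM of Rn45s, and the libraries with the lowest index have the highest Lars2.

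In p53R248W/+ against p53+/+ LSKs no synthetase gene passed the test in edgeR, none reached an unadjusted p below 0.05, and DESeq2 called 0 as well. Over all genes 0.00792% (1 of 12625) and 0.958% did, so few genes of any kind passed in this comparison. The share of 0.958% is below what a threshold of 0.05 gives when no gene differs, so the test may have been conservative here. Few calls therefore do not show that few genes differ. The paper reports many more genes as higher or lower in p53 mutant HSPCs, without stating its threshold for them. Of the 20 cytosolic genes, 17 had a log2 fold change below 0, with a median of -0.17, against 5994 of all 12625 genes tested. The mitochondrial genes were divided evenly, 8 and 8. The SE of a single gene ran from 0.15 for Qars to 0.36 for Lars2, so log2 differences of this size were within the error. Without p53+/+ replicate 3, 9 of 20 cytosolic genes were below 0 and the median was 0.015, so the direction rests on that library. Both comparisons with p53+/+ share those 3 control libraries.

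Wars and Cars had the smallest p-values of the cytosolic set in this comparison. Levels of Wars were 124, 164 and 171 CPM with p53+/+, 114, 148 and 123 CPM with p53R248W/+ and 122, 106 and 148 CPM with p53-/-. Its genotypes overlapped (log2 fold change -0.26, SE 0.19), as did those of Cars (-0.25, SE 0.20). In the mitochondrial set these were Tars2 and Vars2, for threonyl- and valyl-tRNA. For Tars2 the values were 104, 108 and 134 CPM in p53+/+, 93.7, 104 and 98.7 CPM in p53R248W/+ and 144, 108 and 108 CPM in p53-/- libraries. Vars2 was at 59.1, 62.6 and 57.8 CPM in p53+/+, 34.7, 57.5 and 56.3 CPM in p53R248W/+ and 61.3, 32.9 and 51.3 CPM in p53-/- libraries. The log2 fold changes were -0.22 (SE 0.17) for Tars2 and -0.27 (SE 0.25) for Vars2, whose lowest p53R248W/+ library was replicate 1. Eprs, which fell in p53-/- LSKs, had a log2 fold change of -0.21 (SE 0.29), Atf4 of -0.17 (SE 0.16) and Lars2 of 0.31 (SE 0.36), the last turning to -0.018 without p53R248W/+ replicate 1.

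In p53R248W/+ against p53-/- LSKs Eprs was higher, and 15 of 20 cytosolic genes had a log2 fold change above 0, against 6521 of all 12625 genes tested. Without p53R248W/+ replicate 2 or without p53-/- replicate 2, the number of cytosolic genes below 0 rose from 5 to 9 of 20. Eprs was the only synthetase past the test (log2 fold change 1.24, SE 0.30, adjusted p = 0.0437), against 2.34% of all genes higher and 1.1% lower. At an unadjusted p below 0.05, 1 cytosolic gene was higher and 0 lower, and 2 mitochondrial genes were higher (Aars2 and Iars2) and 2 lower (Mars2 and Pars2), where 11.6% of all genes were higher and 9.47% lower. The Eprs call was the less stable of its 2, being lost when any library other than p53+/+ replicate 1 and p53R248W/+ replicate 1 was left out, with adjusted p-values from 0.0547 to 0.166, and in a fit of the 6 libraries alone (0.0543). Pars2 had a log2 fold change of -0.53 (adjusted p = 0.106), with all p53R248W/+ libraries below the p53-/- libraries, and Aars2 of 0.80 (adjusted p = 0.141), with p53R248W/+ replicate 1 inside the p53-/- range. Without that replicate both passed the test (adjusted p = 0.0439 for Pars2 and 0.0363 for Aars2). This comparison shares its libraries with both others. Atf4 was higher in p53R248W/+ than in p53-/- LSKs (log2 fold change 1.33, SE 0.16, adjusted p = 0.00252).

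No listed gene of cytosolic elongation or of tRNA editing, maturation and export passed the test. In p53-/- against p53+/+ LSKs all 5 cytosolic elongation factors had a log2 fold change above 0, from 0.027 for Eef1b2 to 0.42 for Eef1a1, which brings charged tRNA to the ribosome and had the smallest adjusted p of the 5 (0.292). Of the 7 genes of tRNA editing, maturation and export, 4 were below 0, with Aarsd1, an alanyl-tRNA editing protein, at -0.36 (adjusted p = 0.348) and Dtd1, a deacylase for D-aminoacyl-tRNA, at 0.26 (0.487).

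Listed genes of growth, division and LSK identity, chosen with earlier results of these data known, were measured in the same libraries. Ncl measured 612, 842 and 1237 CPM in p53+/+, 505, 924 and 831 CPM in p53R248W/+ and 346, 391 and 438 CPM in p53-/- LSKs. Levels of Nop58 were 188, 228 and 214 CPM with p53+/+, 266, 266 and 244 CPM with p53R248W/+ and 138, 110.1 and 116 CPM with p53-/-. Both nucleolar genes fell in p53-/- LSKs (log2 fold changes -1.20 and -0.79, adjusted p = 0.0393 and 0.0272), while the 9 growth and nucleolar genes listed were divided, 5 below and 4 above 0, with a median of -0.18. For Mki67 the values were 68.3, 108 and 121 CPM in p53+/+, 28.2, 124 and 134 CPM in p53R248W/+ and 17.1, 19.7 and 22.0 CPM in p53-/- libraries. Top2a was at 210.3, 323 and 289 CPM in p53+/+, 202, 349.9 and 318 CPM in p53R248W/+ and 133, 73.1 and 58.4 CPM in p53-/- libraries. These proliferation genes fell as well (-2.34 and -1.64, adjusted p = 0.0255 and 0.0234). Mycn measured 68.0, 74.8 and 86.3 CPM in p53+/+, 59.8, 78.3 and 75.3 CPM in p53R248W/+ and 129, 149 and 126 CPM in p53-/- LSKs. Mycn, a Myc family transcription factor, rose (0.82, adjusted p = 0.0294). All 12 cell cycle genes listed had a log2 fold change below 0, with a median of -0.62, and their sum was 2446 to 3098 CPM in p53+/+, 2548 to 2866 CPM in p53R248W/+ and 1648 to 2467 CPM in p53-/- libraries. Levels of Hlf were 205, 192 and 118 CPM with p53+/+, 143, 118 and 163 CPM with p53R248W/+ and 351, 362 and 418 CPM with p53-/-. Hlf, a transcription factor of stem cells and 1 of the 10 LSK markers, rose (log2 fold change 1.14, SE 0.22, adjusted p = 0.0242). Of the 10 LSK markers, 7 had a log2 fold change above 0 and 3 below, and only Hlf passed the test. Those below 0 were Slamf1 (-0.81), Cd48 (-0.52) and Flt3 (-0.24). The sum of the LSK markers was 3773 to 4769 CPM in p53+/+ and 4713 to 5239 CPM in p53-/- libraries. No listed marker of other cells passed the test in edgeR, and most had a log2 fold change below 0. All 8 granulocyte and monocyte markers in the table had a log2 fold change below 0, with a median of -2.36, and their sum was 994 to 4001 CPM in p53+/+ and 804 to 1227 CPM in p53-/- libraries. The 4 T and NK markers were below 0 as well, with sums of 319 to 337 and 206 to 271 CPM. Nkg7 made up nearly all of these sums, at 308 to 328 CPM in p53+/+ and 197 to 267 CPM in p53-/- libraries. For Cd4, Cd8a and Il2rb, all at low levels, the groups overlapped. Of 5 megakaryocyte markers 4 were below 0, and their sum was 141 to 175 CPM in p53+/+, 146 to 150.0 CPM in p53R248W/+ and 122 to 137 CPM in p53-/- libraries, so the p53-/- sums lay below all others. Of the B lymphoid markers 3 of 5, and of the erythroid markers 3 of 4, were below 0. The calls of Ncl, Nop58, Mki67, Top2a, Mycn and Hlf, like that of Eprs, were lost without p53+/+ replicate 2 or 3 or p53-/- replicate 2 or 3, with adjusted p-values from 0.0613 to 0.170, and, except for Top2a, without p53-/- replicate 1 (0.0583 to 0.130). Without p53+/+ replicate 1 Mycn also lost its call (0.0574), and without p53R248W/+ replicate 3 Ncl did (0.0509). The part of cell cycle and cell composition in the synthetase values was not tested.

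Between p53R248W/+ and p53-/- LSKs the same lists gave higher Nop58, Top2a and Mki67 in p53R248W/+ (log2 fold changes 1.09, 1.72 and 2.28) and lower Mycn, Hlf and Meis1 (-0.92, -1.41 and -0.74), all at an adjusted p below 0.05. Of the 10 LSK markers, 7 had a log2 fold change below 0 here and 3 above. For Meis1 the values were 331, 303 and 249 CPM in p53+/+, 254, 253 and 311 CPM in p53R248W/+ and 456, 432 and 478 CPM in p53-/- libraries. Nkg7 was at 313, 308 and 328 CPM in p53+/+, 407, 314 and 378 CPM in p53R248W/+ and 218, 267 and 197 CPM in p53-/- libraries. Meis1, a homeobox factor of stem cells, was lower in p53R248W/+ (adjusted p = 0.0366), and Nkg7, a cytotoxic granule gene, was higher (0.69, adjusted p = 0.0479). Nop58 and Hlf kept this call under all 18 alternatives. Each of the other 5 genes lost it without p53R248W/+ replicate 2 or 3 or p53-/- replicate 2 or 3 (adjusted p-values from 0.0539 to 0.155), and Mki67, Meis1 and Nkg7 also without p53-/- replicate 1 (0.0903 to 0.161). Meis1 further lost it without p53+/+ replicate 2 (0.0530) and in a fit of the 6 libraries alone (0.0611). Nkg7 lost it whichever library was left out, with DESeq2 size factors (0.0539) and in the 6-library fit (0.0896).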

How the data were processed

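RNA-seq of LSKs was analysed in 9 libraries, 3 for each of p53+/+, p53R248W/+ and p53-/-, grouped by the genotype in their labels. The authors deposited whole-number read counts per gene with gene lengths, for 12647 genes whose summed count was at least 37; genes below that, and mitochondrial-encoded genes (0 counted), could not be analysed. The submitters' processing notes name STAR 2.5.2b, Subread 1.5.0 with featureCounts, edgeR and build mm10. Whether counting used strand is not given in the sources used here, so reads shared with overlapping genes (10 of the 36 members, Mars with Ddit3, Hars with Hars2 and Lars2 with Gm46137 among them) cannot be assigned by strand. Iars shares 2249 coding bases, at up to 96.8% identity, with a copy at chr1:19330921-19333189, and its counts are uncertain to that extent. Copies of the non-coding parts of the members were not sought. Another 9 columns hold results of the authors' own comparisons (fold change with its p and FDR) and were not used.

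Counts were filtered with filterByExpr (12625 genes kept) and scaled with TMM. One quasi-likelihood model of the 9 libraries was fitted in edgeR 4.0.16 (R 4.3.3), with Benjamini-Hochberg adjustment over all genes tested and a threshold of 0.05. CPM are counts scaled to a common TMM-adjusted library total, and RPKM divide them by the deposited gene length. Totals of 18021375 to 29750702 counts set the counting precision, and the biological coefficient of variation was 0.281. The members and lists were chosen with earlier results of these data known. Values in every library are given for members past the threshold (or the 2 with the smallest p in a class without any), the 3 highest and 3 lowest of each class by RPKM, Lars2, Kars, Gars, Eprs, the scaffolds, and list genes past the threshold, at most 3 per list (1 such gene and 1 sequence are not reported here); further genes were added where a count named them. Alternatives were DESeq2 1.42.0, its size factors in edgeR, 2 other filters, a replicate block, 6-library fits, Lars2 left out of the totals, each library left out, and 2 chosen after seeing the data. Promoter windows are from RefSeq (GRCm38.p6), and coding-sequence copies were sought with BLAST+ 2.17.0.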

Additional observations from a re-analysis of the deposited data

How the results depend on the processing

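Scaling with DESeq2 size factors, no filter on low counts, a minimum of 10 counts in every library and leaving Lars2 out of the library totals kept Eprs as the only synthetase call. DESeq2 called 4 synthetases in p53-/- against p53+/+ LSKs in place of 1, 0 in p53R248W/+ against p53+/+ and 2 in p53R248W/+ against p53-/- (1 in edgeR), and put Lars2 past the threshold (log2 fold change 1.06). Over all genes it called 1552, 6 and 1325 in place of 442, 1 and 434, and the minimum of 10 counts gave 0 in place of 1 in p53R248W/+ against p53+/+. Fits of the 6 libraries compared gave 894 and 208 genes in the comparisons with p53-/-, and 0 synthetases in p53R248W/+ against p53-/-. Leaving out 1 library at a time gave 0 to 3 synthetases and 37 to 1485 genes in p53-/- against p53+/+, and 0 to 3 and 77 to 1559 in p53R248W/+ against p53-/-, the highest of both without p53R248W/+ replicate 1. The lowest were without p53+/+ replicate 3 (37 genes) and p53R248W/+ replicate 3 (77 genes). In p53R248W/+ against p53+/+ it turned Lars2 to -0.018 (range -0.018 to 0.56), Kars to 0.054 and Gars to 0.018, where all other settings gave Kars down to -0.22 and Gars down to -0.29. In p53-/- against p53+/+ it gave Lars2 log2 fold changes from 0.46 to 1.31. The 2 alternatives chosen after seeing the data gave, with the length trend removed, 3 synthetases and 1105 genes in p53-/- against p53+/+ and 920 genes in p53R248W/+ against p53-/-. Without p53+/+ replicate 1 and p53R248W/+ replicate 1 together they gave 8 and 1879, and 3 and 1745, and Lars2 passed the threshold in p53-/- against p53+/+ (1.30). The cause of these shifts was not tested. The number of cytosolic genes below 0 in p53-/- against p53+/+ stayed between 15 and 17 of 20 under all 18 alternatives, while the number lower at an unadjusted p below 0.05 ran from 1 to 13.

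Replicate numbers were not taken as pairs, since in each comparison at least 1 same-numbered pair of libraries did not deviate together. Deviations of same-numbered libraries correlated at 0.0057, -0.095 and -0.026 between p53-/- and p53+/+, at 0.36, 0.54 and 0.039 between p53R248W/+ and p53+/+, and at 0.068, -0.11 and 0.13 between p53R248W/+ and p53-/-, and 7 of 9 libraries correlated best with a library of their own number. Replicates 2 of p53R248W/+ and p53+/+, which also had the highest granulocyte and monocyte marker sums, and replicates 1 of these genotypes did deviate together, and what their numbers share is not given in the sources used here. With the replicate block, 882, 2 and 672 genes were called, and Eprs remained the only synthetase (log2 fold change -1.39 in p53-/- against p53+/+), while Nkg7 lost its call in p53R248W/+ against p53-/- (adjusted p = 0.0606). With 3 libraries a genotype, and a biological coefficient of variation of 0.281, differences of the size seen for most synthetases could not be told from the spread between libraries.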
